A study of Mus musculus with 3 samples.

Results

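Cycling Foxp3-negative CD4 T cells of tumors were described here in the 3 libraries of the series. A barcode was a member when it held at least 200 genes and at most 20% mitochondrial UMIs (unique molecular identifiers, 1 per captured RNA molecule). It also held at least 2 UMIs of the T cell receptor genes Cd3d, Cd3e, Cd3g, Trac, Trbc1 and Trbc2, fewer than 5 UMIs of the myeloid genes Lyz2, C1qa, C1qb, S100a8 and S100a9, at least 1 UMI of Cd4, none of Cd8a, Cd8b1 and Foxp3, and at least 3 UMIs of Mki67 and Top2a together. The members were thus chosen by these UMI counts. They numbered 276 after mono-IL-10, 1004 after IL-10/2-Trikine and 1037 after the Trikine given together with anti-PD-1, or 2317 of 71909 barcodes with enough genes. Values are given in this order of the libraries throughout, and the third library is called the combination.

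CD4 T cells are helper cells that read peptides on major histocompatibility complex (MHC) class II and act through cytokines, costimulatory ligands and, in some tumors, cytotoxic granules. Mki67 and Top2a, a chromosome coat protein and the DNA topoisomerase that untangles sister chromatids, are transcribed mostly from S phase to mitosis. Leaving out cells with the factor Foxp3 removes most regulatory T cells, which also divide in tumors. IL-10 acts mainly through STAT3, and IL-2 mainly through STAT5, which drives division, the IL-2 receptor alpha chain and effector genes in T cells.

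Wild-type B6129SF1/J (F1) mice carried a subcutaneous tumor of 500000 KP1 cells, a mouse small-cell lung cancer line. They received mono-IL-10, a monomeric IL-10 labelled Supermono-10, or IL-10/2-Trikine, in which that cytokine is linked to an IL-2 variant that recruits the IL-2 receptor beta chain. Doses of 3 µg were spaced by 2 days, the first on day 7 and the last on day 19. The combination also had 200 µg of anti-PD-1 antibody on days 7, 11, 15 and 19, and live CD45+ cells were sorted from the tumors on day 19 after a density gradient. The sample labels name the antibody for the combination only, although the protocol text can be read as giving it to every mouse. There was no untreated library, each treatment is 1 library, and the number of mice in each is not stated. No difference could therefore be tested against the spread between mice. Intervals of shares, levels and gene ratios are exact 95% intervals, those of ratios between shares are approximate, and all of these cover counting error only. The interval of a list median is drawn from the order of its genes and shows their spread, and genes are not replicates. Both comparisons share the IL-10/2-Trikine library.

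The cell label was checked first. Trac was present in 98.6%, 99% and 98.9% of members. Lrrc32, a surface protein of activated regulatory T cells, was at 0.60, 0.775 and 0.755 CPM (counts scaled to the summed UMIs of the members) in members, against 17.4, 8.63 and 19.2 CPM in cycling Foxp3-positive CD4 cells. Ikzf2 (Helios), a factor of regulatory and of some activated T cells, was at 624, 518 and 611 CPM and present in 191, 841 and 873 members. The natural killer receptor genes Klrc2 and Klre1 were present in 38.8%, 49.3% and 62.2% and in 31.5%, 42.5% and 46.7% of members, at 72.9, 65.0 and 92.7 and 123, 95.8 and 101 CPM. The natural killer list of 9 genes, Eomes among them, summed to 396, 320 and 303 CPM, and Ncr1, Klrb1c, Klra8 and Klra4 of that list were each in under 7% of members. The gamma-delta list of 8 genes summed to 154, 243 and 205 CPM. In that list Trdc, the delta constant gene, was present in 3, 38 and 29 members, while the gamma chain genes Trgc2, Trgv2 and Tcrg-C4, which alpha-beta T cells can also transcribe, were in 59, 498 and 422, in 49, 394 and 332 and in 18, 232 and 101. The 7 regulatory T cell genes, Ikzf2 among them, summed to 1331, 1368 and 1613 CPM. Of these, Ctla4 and Il2ra, which activated helper cells also express, were present in 86.6%, 94.3% and 95.6% and in 31.5%, 78.0% and 68.5% of members, so the low Lrrc32 is a value of that gene and not of the list. The 9 B cell genes summed to 184, 152 and 103 CPM. Within that sum Ighm was at 58.2, 137 and 86.5 CPM, and each of the other 8 was lower with IL-10/2-Trikine than with mono-IL-10, as Ms4a1 was at 26.4, 0.0596 and 0.755 CPM. The 14 macrophage genes summed to 295, 351 and 291 CPM, of which Plac8, a gene that T cells can also express, had 127, 255 and 188 CPM. The complement genes C1qa, C1qb and C1qc were at 17.1, 4.05 and 11.5, at 12.9, 4.89 and 12.6 and at 19.2, 5.19 and 13.4 CPM, and the rule limited the first pair of them. The 10 dendritic cell genes, Ccr7 and Bst2 among them, summed to 247, 177 and 165 CPM, and Flt3, Xcr1 and Clec9a, which define those cells, were at 9.0, 1.61 and 1.38, at 10.5, 0.656 and 0.692 and at 3.3, 0.477 and 0.126 CPM. The 16 tumor cell genes summed to 56.1, 32.2 and 46.6 CPM. The 5 CD8 T cell genes summed to 346, 127 and 121 CPM. All of it came from Eomes, Gzmk and Crtam, since the rule excluded Cd8a and Cd8b1. The 8 genes of group 2 innate lymphoid cells, Gata3, Areg, Rora and Il13 among them, summed to 733, 655 and 837 CPM. The 8 neutrophil genes summed to 118, 69.9 and 60.3 CPM, of which Il1r2 had 114 CPM with mono-IL-10. The part of such cells in these genes was not tested. A UMI of 12 genes of B, plasma, dendritic or tumor cells was held by 41, 70 and 63 members, or 14.9%, 6.97% and 6.08%. Scrublet, a doublet caller, marked 18, 18 and 25 of all kept barcodes, too few to use, and doublets were not removed. The libraries shared 137 to 180 kept barcodes in pairs, and 1 member barcode of mono-IL-10 was also a member barcode of IL-10/2-Trikine.

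The deposited totals were 158570946, 197176873 and 175794959 UMIs. A median member held 10224, 15249 and 14024 UMIs and 3430, 4109.5 and 3972 genes, and the members summed to 3334342, 16777411 and 15889205 UMIs. The mono-IL-10 members thus rest on the fewest molecules, which widens every interval that includes them.

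Members were a larger share of T cells with IL-10/2-Trikine than with mono-IL-10. They made up 3.04% (2.70 to 3.41), 7.13% (6.71 to 7.56) and 7.14% (6.73 to 7.57) of the 9083, 14088 and 14524 cells that passed the T cell and myeloid gates. Of the 1708, 2357 and 3669 Foxp3-negative CD4 cells, 16.2% (14.4 to 18.0), 42.6% (40.6 to 44.6) and 28.3% (26.8 to 29.8) were members. The share of T cells was 2.35 times (2.06 to 2.67) as high with IL-10/2-Trikine as with mono-IL-10, and the share of Foxp3-negative CD4 cells 2.64 times (2.34 to 2.97). The combination and IL-10/2-Trikine alone did not differ beyond counting error among all T cells, at a ratio of 1.0 (0.921 to 1.09), and the combination was lower among Foxp3-negative CD4 cells, at 0.664 (0.619 to 0.711). The count of Foxp3-negative CD4 cells was 3669 in the combination against 2357, while members numbered 1037 against 1004. These sort fractions set a member share and carry no number of cells per tumor.

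Depth moved with these shares. The rule counts UMIs, so a deeper cell passes it more easily. Cells with at least 2000 UMIs were thinned at random to that number, the gates were set again on the thinned UMIs and any UMI of Mki67 or Top2a was accepted. Of the 1371, 1825 and 2912 Foxp3-negative CD4 cells so found, 29.1%, 44.3% and 33.0% passed, 87, 168 and 201 shallower ones being left out, and the ratio of IL-10/2-Trikine to mono-IL-10 was 1.52 among these cells and 1.35 among all T cells. Thinned alike, 13.0%, 2.5% and 9.20% of B cells and 16.25%, 5.94% and 0 of 22 neutrophils held a UMI of Mki67 or Top2a. Their gates allowed no UMI of the T cell receptor genes, so these are background shares and not members. The median depths of these gates, unthinned and with shallower cells included, were 3444.5, 3763 and 3794 and 2264, 1438.5 and 1873 UMIs. With cells thinned to 5000 UMIs and the rule as it stands, the ratio of IL-10/2-Trikine to mono-IL-10 was 2.16 among Foxp3-negative CD4 cells and 2.06 among all T cells. Only 678, 1396 and 2065 Foxp3-negative CD4 cells and 3681, 7949 and 6280 T cells were found at that depth, unequal parts of the libraries and the deeper ones. The direction was the same in both settings and the size was not, and the former setting changed the depth and the rule together. For the combination over IL-10/2-Trikine the ratio among all T cells was 1.22 (1.12 to 1.34) and 1.26 (1.15 to 1.38) in these settings, and 0.908 (0.822 to 1.001) for cells with 12 or more UMIs of Mki67 and Top2a, an interval that reaches 1.

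The counts that chose the members are a description. Exactly 3 UMIs of Mki67 and Top2a, the least that qualifies, were held by 51, 44 and 92 members, and 142, 777 and 727 members held 12 or more, which is 51.4%, 77.4% and 70.1%. Just outside the rule, 122, 97 and 239 Foxp3-negative CD4 cells held 2 UMIs. Stmn1, a microtubule regulator of dividing cells that the rule did not use, was present in 19.6%, 61.4% and 55.4% of the cells with 3 UMIs and in 17.2%, 42.3% and 33.1% of those with 2. Those cells were also shallower in the mono-IL-10 library, at medians of 6222, 7592 and 8148.5 UMIs with 3 and 4638.5, 6223 and 6785 with 2, and these shares were not thinned.

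**Figure D1:**
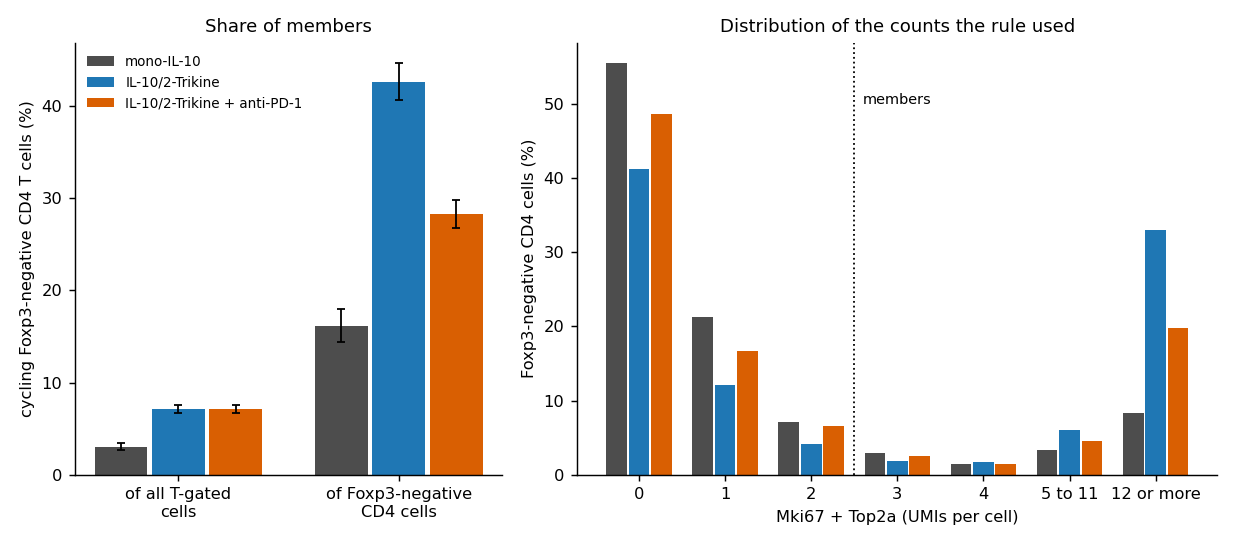
Left, share of members (%, bars) among all T-gated cells and among Foxp3-negative CD4 cells in the 3 libraries, with exact 95% intervals as error bars. Right, Foxp3-negative CD4 cells (%) by their summed Mki67 and Top2a UMIs, with the members to the right of the dotted line; the class of 12 or more holds 142, 777 and 727 cells.

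The balance of S phase and G2/M genes was close in its median and differed in its spread. Over the S phase list of 42 genes and the G2/M list without Mki67 and Top2a, the S phase UMIs were a median of 37.7%, 35.1% and 34.3% of both lists per cell in the 244, 990 and 1008 members with at least 20 UMIs of these lists. The share of these members with more S phase than G2/M UMIs was 24.2%, 13.3% and 17.6%. These cells were not thinned, although median members held 10224, 15249 and 14024 UMIs, and the part of depth in the spread was not tested. The ratio of summed S phase to G2/M UMIs was 0.509, 0.525 and 0.506. Ratios of CPM are given below on the log2 scale for genes with at least 50 UMIs in the 2 libraries compared, where the median gene stood at -0.13 for IL-10/2-Trikine over mono-IL-10 and at 0.02 for the combination over IL-10/2-Trikine.

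A gene is called higher or lower where its CPM differed more than 2-fold. With IL-10/2-Trikine over mono-IL-10, 146 of 10368 genes (1.41%) were called higher and 670 (6.46%) lower. For the combination over IL-10/2-Trikine, 196 of 11078 genes (1.77%) were called higher and 100 (0.903%) lower. The former count was 102 without members holding a UMI of another lineage and 92 among members with 12 or more UMIs of Mki67 and Top2a, against 91 and 110 called lower. Each count of list genes below is set against these shares, and with 1 library a group none of them is a test.

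For S phase genes the median ratio was 0.30 (0.14 to 0.35) with IL-10/2-Trikine over mono-IL-10, 0.44 above the median gene, with 39 of 42 above 0 and none called. Rrm2, a subunit of the enzyme that makes deoxynucleotides, was at 319, 596 and 459 CPM, and Ccne2, cyclin E2 of the G1/S transition, at 40.2, 79.6 and 72.1 CPM with the highest ratio of the list, 0.99 (0.73 to 1.25). The G2/M genes had a median of 0.19 (0.11 to 0.22), from G2e3 at -0.38 to Aurka, a kinase of the mitotic spindle, at 0.77. That list of 54 holds Mki67 and Top2a, and its median over the other 52 was 0.19, and -0.16 for the combination over IL-10/2-Trikine. Both medians depend on which cells count as cycling: among members with 12 or more UMIs of Mki67 and Top2a they were 0.12 and -0.10. Since Mki67 and Top2a chose the cells, their own levels, 740.2, 756 and 688 and 863, 957 and 911 CPM, support nothing.

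Against IL-10/2-Trikine alone, the combination had slightly lower cell-cycle levels, with medians of -0.20 (-0.24 to -0.14) for S phase and -0.15 (-0.17 to -0.11) for G2/M and no gene called. Of the G1 cyclins and inhibitors, Ccne1 (cyclin E1) was at 42, 88.3 and 67 CPM, and the CDK inhibitor Cdkn1a at 198, 336 and 372 CPM. Ccnd2 (cyclin D2) was at 183, 109.6 and 130.3 CPM and Ccnd3 (cyclin D3) at 96.9, 132 and 103 CPM, opposite in order between mono-IL-10 and IL-10/2-Trikine. The cyclin-dependent kinases Cdk1, Cdk2 and Cdk4 had log2 ratios of 0.22, 0.12 and 0.43 in the first comparison and -0.05, -0.02 and -0.36 in the second, and Cdk7 and Cdk9, which act on RNA polymerase, had -0.03 and 0.23, then 0.06 and -0.13.

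Genes of folate, serine and purine synthesis, which feed DNA synthesis, had a median of 0.45 (0.19 to 0.64) with IL-10/2-Trikine over mono-IL-10 over 19 of 20 genes, and none was called. Phgdh, which commits glycolytic carbon to serine, was at 78, 150.3 and 123 CPM, and Atic, a purine synthesis enzyme, at 71.4, 132 and 99.2 CPM. The glycolysis genes had a median of -0.01, with Ldha (lactate dehydrogenase) at 983, 1468 and 1411 CPM. Fdps and Idi1, enzymes of the isoprenoid and sterol path, were among the 10 highest of 3842 genes ranked for IL-10/2-Trikine over mono-IL-10, at 40.5, 111 and 73.9 and 50.4, 126 and 75.5 CPM. Both were also among the 10 lowest for the combination over IL-10/2-Trikine, at -0.59 and -0.74.

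The interferon-induced transmembrane genes stood apart from the other interferon genes, so their promoters are shown with that of Isg15, a typical interferon-induced gene. Each runs from 250 bases before to 50 after the transcript start in RefSeq's GRCm38.p6. The count matrices carry no coordinates. Ifitm1 is at chr7:140967826-140968125 on the plus strand, Ifitm2 at chr7:140955912-140956211, Ifitm3 at chr7:141010695-141010994 and Isg15 at chr4:156200769-156201068, these on the minus strand. Capitals mark GAAANNGAAA, the core of the interferon-stimulated response element, searched on both strands.
Ifitm1: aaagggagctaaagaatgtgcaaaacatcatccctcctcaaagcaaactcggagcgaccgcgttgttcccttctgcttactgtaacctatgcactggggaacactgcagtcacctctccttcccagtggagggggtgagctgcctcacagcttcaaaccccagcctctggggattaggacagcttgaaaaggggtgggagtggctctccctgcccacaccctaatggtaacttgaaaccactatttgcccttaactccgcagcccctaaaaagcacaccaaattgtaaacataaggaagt
Ifitm2: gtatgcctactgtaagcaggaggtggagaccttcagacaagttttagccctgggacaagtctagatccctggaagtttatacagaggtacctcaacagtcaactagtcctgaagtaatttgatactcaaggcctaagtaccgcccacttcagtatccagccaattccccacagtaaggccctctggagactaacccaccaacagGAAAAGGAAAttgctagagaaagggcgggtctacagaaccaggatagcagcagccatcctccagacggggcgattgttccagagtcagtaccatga
Ifitm3: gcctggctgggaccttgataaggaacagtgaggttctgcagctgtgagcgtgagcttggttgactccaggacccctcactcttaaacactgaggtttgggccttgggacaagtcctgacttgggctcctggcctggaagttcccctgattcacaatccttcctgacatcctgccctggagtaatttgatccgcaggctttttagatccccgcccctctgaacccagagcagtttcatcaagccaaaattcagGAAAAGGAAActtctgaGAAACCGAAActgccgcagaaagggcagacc
Isg15: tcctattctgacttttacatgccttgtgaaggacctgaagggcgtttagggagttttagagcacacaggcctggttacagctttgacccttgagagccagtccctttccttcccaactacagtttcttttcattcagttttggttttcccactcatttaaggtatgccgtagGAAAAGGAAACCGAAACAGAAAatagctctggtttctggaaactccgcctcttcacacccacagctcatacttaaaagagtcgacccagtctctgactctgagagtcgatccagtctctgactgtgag
The motif had no match in the Ifitm1 window, 1 in that of Ifitm2, 2 in that of Ifitm3 and 3 that overlap in that of Isg15. Of 32851 mouse promoters of this length, 1131 (3.44%) hold it, against 16 of the 27 type I interferon genes and 13 of the 27 interferon-gamma genes that had a promoter in the table. A match is a description of the letters, not a bound site.

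Ifitm1, Ifitm2 and Ifitm3 encode small membrane proteins that limit virus entry. All were higher in members treated with IL-10/2-Trikine, alone or in combination, than in those treated with mono-IL-10. Ifitm1 was at 39, 486 and 537 CPM and present in 22, 518 and 480 members, a log2 ratio of 3.64 (3.39 to 3.90) for IL-10/2-Trikine over mono-IL-10, the highest of the 3842 ranked genes. Ifitm2 was at 234, 1147 and 939.8 CPM with a ratio of 2.29 (2.19 to 2.40), and Ifitm3 at 87, 438 and 413 CPM with 2.33 (2.16 to 2.51). The combination was near IL-10/2-Trikine alone, at 0.14, -0.29 and -0.08. With every member thinned to 3000 UMIs, which left out 4, 13 and 14 shallower members, Ifitm1 was present in 4.41%, 33.4% and 30.9% of members and Ifitm2 in 27.2%, 80.6% and 74.8%, against 7.97%, 51.6% and 46.3% and 46.4%, 92.1% and 90.3% unthinned. The 328, 59 and 64 B cells of the same libraries that reached this depth held Ifitm1 in 1.22%, 10.2% and 3.12% and Ifitm2 in 5.18%, 6.78% and 9.38%. Leaving out members with a UMI of another lineage gave 4.26, 2.42 and 2.48. The difference of Ifitm1 was thus also seen as more cells with the RNA, at equal depth.

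Many other interferon genes were at lower levels with IL-10/2-Trikine than with mono-IL-10. Of the 35 genes of the type I interferon list, 23 had enough UMIs, 10 were called lower and none higher, with a median of -0.88 (-1.12 to -0.33). Isg15, a ubiquitin-like protein, was at 124, 59.6 and 109.7 CPM, Ifi27l2a at 161, 61.5 and 64.1 CPM and Zbp1, a nucleic acid sensor, at 52.5, 25.6 and 42.2 CPM. Of the 36 interferon-gamma genes with enough UMIs, 7 were called lower, with a median of -0.69 (-0.84 to -0.48). The lowest of them, Ciita, the activator of MHC class II genes, stood at -1.90 and at -0.37 without members holding a UMI of another lineage, which ends its call. The guanylate-binding gene Gbp4 was at 49.5, 24.3 and 37.2 CPM and the MHC class I gene H2-K1 at 2725, 1678 and 2059.6 CPM. In the combination the interferon-gamma list had a median of 0.45 (0.23 to 0.51) over IL-10/2-Trikine, with 2 of 36 called higher, among them Iigp1, an immunity-related GTPase, at 25.5, 8.4 and 19.4 CPM, whose ratio of 1.21 was 0.93 among members with 12 or more UMIs of Mki67 and Top2a, short of 2-fold. Isg15 stood at 0.88 (0.77 to 0.99) in that comparison, while the type I list as a whole had a median of 0.08.

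Genes downstream of IL-2 receptors were mixed. Il2ra, the alpha chain of the IL-2 receptor, was at 88.8, 261 and 248 CPM and present in 87, 783 and 710 members, a ratio of 1.56 (1.39 to 1.73) for IL-10/2-Trikine over mono-IL-10. At 3000 UMIs per cell it was present in 15.1%, 40.9% and 37.8% of members and in 1.83%, 6.78% and 3.12% of B cells. Socs2, a feedback inhibitor of STAT5 signaling, was at 16.8, 54.4 and 39.1 CPM, a ratio of 1.70 (1.31 to 2.11), and was among the 10 highest ranked genes as Il2ra was. Cish, another STAT5-induced inhibitor, was at 64.5, 76 and 80.8 CPM, and the kinase Pim1 at 431, 375 and 500.2 CPM. The shared chains Il2rb and Il2rg were at 241, 254 and 349 and 298, 234 and 307 CPM. Socs3, an inhibitor that STAT3 induces, was at 70.2, 40.8 and 49 CPM. The list of 22 JAK, STAT and SOCS genes, which also holds other genes such as Pim2 and Bcl2, had a median of -0.59 (-0.68 to -0.23), with Socs2 alone called. In the combination the same list had a median of 0.30 (0.17 to 0.55) over IL-10/2-Trikine, with Stat3 at 748, 495 and 755 CPM across the libraries.

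Il10ra, the chain that binds IL-10, was at 35.4, 13.9 and 19.3 CPM, a ratio of -1.35 (-1.68 to -1.02), and Il10rb was at 30.9, 30.9 and 29.1 CPM. At equal depth Il10ra was in 13.6%, 4.94% and 5.47% of members and in 22%, 10.2% and 10.9% of B cells, which express it and so are no background for it. Of the 21 receptor chains, 1 was called higher and 3 lower: Il2ra, and Il10ra, Il6ra and Il6st, the chains of the IL-6 receptor, at 9.0, 1.19 and 2.33 and 25.8, 7.51 and 10.2 CPM. Il7r, the receptor of the survival cytokine IL-7, was at 124, 246 and 215 CPM. Of 10 genes that the study named as core STAT5 targets, Gzma and Klra7 were called higher and 1 gene lower, with a median of 0.06. The study chose that list, and it is no independent evidence of a direction.

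**Figure D2:**
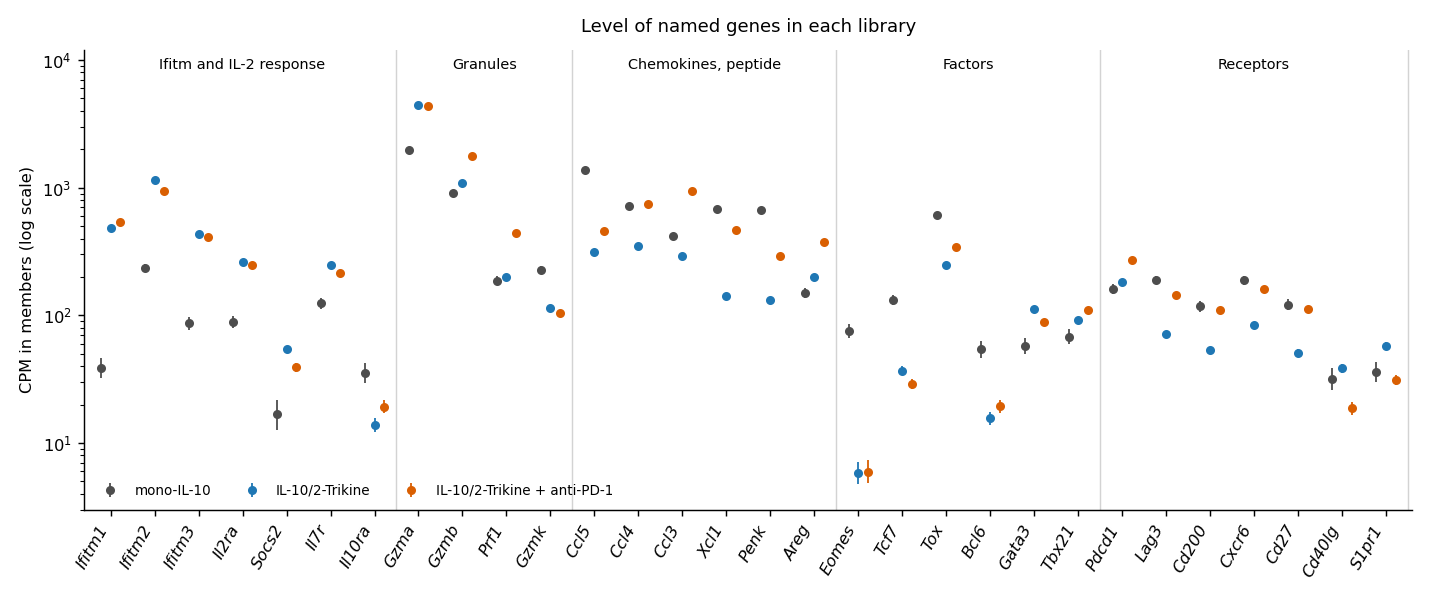
Level of named genes (CPM of the summed members, log scale) in the 3 libraries, with exact 95% Poisson intervals as bars, drawn where they are wider than the point. In the order mono-IL-10, IL-10/2-Trikine and combination, Ifitm1 stands at 39, 486 and 537 CPM and Eomes at 75, 5.84 and 5.98 CPM.

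Cytotoxic granule genes differed one by one. Gzma (granzyme A) was at 1966, 4464 and 4388 CPM and present in 104, 853 and 871 members, a ratio of 1.18 (1.15 to 1.22) for IL-10/2-Trikine over mono-IL-10. B cells also held Gzma at equal depth, in 9.15%, 18.6% and 31.2% against 27.2%, 62.9% and 63.1% of members, and the part of free RNA in its counts was not tested. Gzmb (granzyme B) was at 914, 1085 and 1762 CPM, with ratios of 0.25 (0.19 to 0.30) and, for the combination over IL-10/2-Trikine, 0.70 (0.67 to 0.73). It was present in 34.9%, 51.9% and 58.8% of members at equal depth and in 8.23%, 5.08% and 14.1% of B cells. Among members with 12 or more UMIs of Mki67 and Top2a, its ratio in the first comparison was 0.016. Prf1, the pore-forming perforin, was at 187, 199 and 442 CPM and in 25.4%, 24.4% and 40.4% of thinned members. Its ratio was 0.09 (-0.03 to 0.22) in the first comparison and 1.15 (1.09 to 1.21) in the second, where it was among the 10 highest of 3547 ranked genes. Perforin was thus higher in the combination and near equal between the cytokines alone. Gzmk was at 229, 114 and 105 CPM. Of the granzymes next to Gzmb in the genome, Gzmc was at 19.5, 49.8 and 43.8 CPM, Gzme at 12.9, 10.6 and 31.5 CPM and Gzmf at 1, 80 and 192 UMIs, and reads of these near-identical genes may be split between them. Of the cytotoxic list, 3 of 22 genes were called higher and 2 lower in the first comparison, and 4 of 23 higher and none lower in the second, with medians of 0.04 and 0.35 (-0.02 to 0.58). The highest of those 4, Gzmd at 2.16, had 6, 58 and 245 UMIs, and 1 member held 73.5% of those in the combination. Of the 192 Gzmf UMIs in the combination, 5 members held 65.6%.

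Most chemokine genes measured were lower with IL-10/2-Trikine than with mono-IL-10 and in part higher again in the combination. Xcl1, a ligand of cross-presenting dendritic cells, was at 676, 142 and 462 CPM, with ratios of -2.25 (-2.33 to -2.16) and 1.70 (1.63 to 1.77), the second being the highest of the ranked genes in that comparison. At equal depth it was present in 20.2%, 13.4% and 19.8% of members and in 1.22%, 0% and 0% of B cells. The shares thus differed less than the CPM did, and 5 members held 53.7% of the Xcl1 UMIs in the mono-IL-10 library. Ccl5, a T cell and monocyte attractant, was at 1385, 311 and 459 CPM, with -2.16 (-2.21 to -2.10) and 0.56 (0.51 to 0.61), and the former was -1.35 among members with 12 or more UMIs of Mki67 and Top2a. Ccl3 and Ccl4, attractants of T cells and myeloid cells, were at 415, 292 and 944 and 722, 351 and 752 CPM. Ccl3 was present in 21.7%, 15.9% and 33.8% of thinned members, in 2.44%, 1.69% and 4.69% of B cells and in 30.5%, 28.2% and 28.4% of macrophages, which make it. Of the 7 chemokine genes with enough UMIs in the first comparison, 4 were called lower and Cxcl2 higher. Of 8 in the second, 4 were called higher (Xcl1, Ccl3, Ccl4 and Ccl9) and Cxcl2 lower, and Ccl9 and Cxcl2 rest on 3, 17 and 94 and on 31, 393 and 17 UMIs.

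Ifng was the most widely detected of the helper cytokines named here. Ifng, the main cytokine of type 1 helper cells, was at 285, 278 and 414 CPM and present in 38.2%, 31.1% and 39.8% of thinned members, with ratios of -0.04 (-0.14 to 0.07) and 0.57 (0.52 to 0.63). The former was 0.37 among members with 12 or more UMIs of Mki67 and Top2a. Csf2, a myeloid growth factor, had 18, 669 and 497 UMIs in 10, 107 and 100 members. The type 2 cytokines had no UMI in the mono-IL-10 members: Il13 had 0, 323 and 79 UMIs in 0, 80 and 26 members. With IL-10/2-Trikine it was 21.4-fold higher against a floor of 3 UMIs in the mono-IL-10 members, with a lower counting limit of 17.3-fold. Il4 had 0, 63 and 12 UMIs in 0, 35 and 7 members, 4.17-fold higher on that floor with a lower counting limit of 3.30-fold. It stood at -2.31 (-3.34 to -1.41) for the combination over IL-10/2-Trikine. Both limits take each UMI as an independent draw, while many UMIs came from the same cells, so they are not lower bounds of the difference. Il17a had 0, 117 and 104 UMIs, of which 104 with IL-10/2-Trikine alone and 103 in the combination came from a single member each, and Il22 had 93, 77 and 33 UMIs in 6, 5 and 5 members. Il21, the follicular helper cytokine, was in 2.94%, 2.83% and 3.81% of thinned members. Il10 was at 25.5, 20.5 and 28.2 CPM, Tnf at 25.2, 9.66 and 11.1 CPM and Il6 at 0, 3 and 2 UMIs. The cytokine list also holds Penk, the gene of an enkephalin precursor. Of its 17 genes with enough UMIs, 4 were called higher and 3, Penk among them, lower with IL-10/2-Trikine over mono-IL-10. Of 18 in the second comparison, 3 were called lower and 1 higher, which was Penk and not a helper cytokine.

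Areg, an epidermal growth factor receptor ligand of tissue repair, was at 150.0, 198 and 378 CPM and in 16.9%, 22.6% and 32.6% of thinned members. Penk, which encodes the precursor of enkephalin peptides, was at 669, 131 and 290.3 CPM and in 25%, 10.4% and 18% of thinned members, with B cells at 0.915%, 1.69% and 1.56%. Its ratios were -2.35 (-2.44 to -2.27) and 1.15 (1.07 to 1.22), so the IL-10/2-Trikine members alone were the lowest, as for Xcl1.

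**Figure D3:**
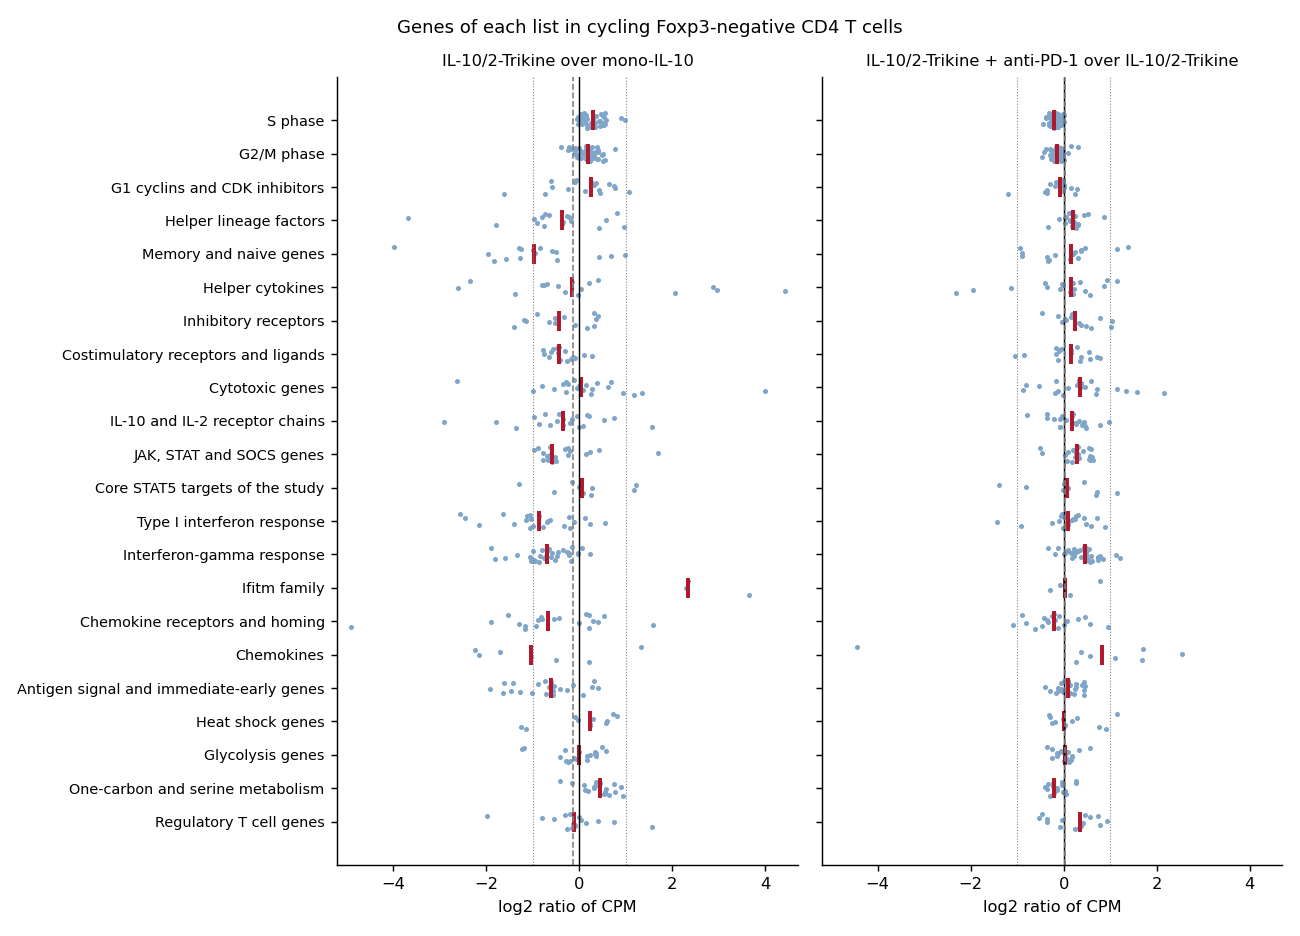
Log2 ratio of CPM for each gene with at least 50 UMIs (points) of the 22 gene lists, with the list median (red mark), in the first comparison (left) and the second (right). The dashed line is the median gene, -0.13 and 0.02, and dotted lines mark 2-fold; the Ifitm list on the left has its median at 2.33.

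Several genes of memory and naive T cells were lower with IL-10/2-Trikine than with mono-IL-10. Of 16 with enough UMIs, 7 were called lower and none higher, with a median of -0.97 (-1.57 to -0.47). The list also holds Tox2, its lowest gene at -3.97, which is a factor of persistently stimulated T cells and 1 of these 7. Tcf7, the factor of stem-like and memory T cells, was at 132, 37 and 29.1 CPM, a ratio of -1.84 (-2.02 to -1.66), and was present in 24.6%, 8.58% and 6.16% of thinned members. Bach2, a repressor of effector genes, was at 85.5, 21.8 and 24.9 CPM and Ccr7, the lymph node homing receptor, at 63.6, 26.3 and 32.4 CPM. Dendritic cells also express Ccr7, and their summed markers, which include Ccr7 itself, were highest in the same library. The part of dendritic cells in the Ccr7 level was not tested. Tox and Tox2, factors of persistently stimulated T cells, were at 614, 249 and 340.3 and 31.8, 2.03 and 5.29 CPM. Il7r ran the other way, at 0.99 (0.84 to 1.14), and Klf2 and its target S1pr1, the receptor for leaving tissue, stood at 0.43 and 0.67. In the second comparison S1pr1 was the lowest of the ranked genes, at 36.3, 57.9 and 31.3 CPM across the libraries and a ratio of -0.89 (-1.05 to -0.73), and the list had a median of 0.16.

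Eomes, a T-box factor of cytotoxic and memory T cells, was at 75, 5.84 and 5.98 CPM and present in 93, 54 and 45 members, a ratio of -3.68 (-4.03 to -3.34). At equal depth it was in 17.6%, 1.92% and 1.27% of members, against 0.915%, 0% and 1.56% of B cells, where 0 of 59 allows a share of up to 6.06% (exact 95% bound), so neither of the latter shares of members stood above that background. Among the other lineage factors, Tbx21 of type 1 helper cells was at 68.1, 91.8 and 110.1 CPM, Gata3 of type 2 helper cells at 57.3, 112 and 88.6 CPM and Bcl6 of follicular helper cells at 54.3, 15.6 and 19.4 CPM. Gata3 was in 14%, 25.9% and 22.5% of thinned members and Tbx21 in 15.8%, 23.5% and 27.5%. Id2, a partner factor of effector cells, was at 1305, 746 and 1363 CPM, Rora at 469, 279.5 and 317 CPM and Runx3, a factor of cytotoxic cells, at 285, 427 and 468 CPM. Of 18 lineage factors, Eomes and Bcl6 were called lower in the first comparison and none was called in the second. Cxcr5, the follicle homing receptor, went with Bcl6, at 48, 8 and 28 UMIs.

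Among inhibitory receptors, Pdcd1 was highest in the combination, and Lag3 and Cd200 were lowest with IL-10/2-Trikine alone. Pdcd1, which encodes PD-1, was at 160.5, 181 and 272 CPM and in 34.9%, 37.6% and 49.3% of thinned members, with ratios of 0.17 (0.04 to 0.31) and 0.59 (0.52 to 0.66). Lag3 was at 189.5, 71.3 and 145 CPM, with -1.41 (-1.55 to -1.27) and 1.03 (0.92 to 1.13), and in 38.6%, 17.3% and 34.8% of thinned members. Cd200 was at 118, 53.1 and 109 CPM, Ctla4 at 602, 563 and 732 CPM, Havcr2 (Tim-3) at 130.5, 164 and 226 CPM and Entpd1 (CD39) at 111, 76.7 and 132 CPM. Of the 14 genes, 3 were called lower in the first comparison (Lag3, Btla and Cd200) and 2 higher in the second (Cd200 and Lag3). Among members with 12 or more UMIs of Mki67 and Top2a the first-comparison ratio of Lag3 was -0.83 and the second-comparison ratio of Cd200 0.97, both short of 2-fold.

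Among costimulatory genes, Cd40lg, the ligand by which helper cells license dendritic cells and B cells, was at 31.8, 38.5 and 18.7 CPM and was the one gene of 16 called lower in the second comparison, at -1.04 (-1.25 to -0.84). It was in 7.35%, 11.5% and 5.28% of thinned members. Tnfsf8 (CD30 ligand) was at 129.6, 139 and 76.2 CPM, with -0.86 (-0.97 to -0.76). Tnfrsf9 (4-1BB) and Tnfrsf4 (OX40) were at 366, 342 and 587 and 265, 235 and 345 CPM, and Icos was at 291, 242 and 311 CPM. Pdcd1 and Icos were found together in 18.8%, 19.5% and 27.4% of thinned members. Cd27, a receptor of the same family as 4-1BB, was at 121, 50.5 and 112 CPM, with -1.26 (-1.43 to -1.09) and 1.15 (1.03 to 1.27). Cd40lg and Tnfsf8 were thus lowest, and Tnfrsf9 and Tnfrsf4 highest, in the combination.

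Of the homing genes, Cxcr6, which holds T cells near dendritic cells in tumors, was at 188, 83.5 and 161 CPM, with -1.17 (-1.31 to -1.04) and 0.94 (0.85 to 1.04), the former at -0.99 with 12 or more UMIs of Mki67 and Top2a, and Cxcr3 was at 57, 25.2 and 16.4 CPM. Of 20 genes, 6 were called lower and Ccr4, a receptor of type 2 helper cells, higher in the first comparison, at 9, 135 and 60 UMIs. Genes of recent antigen signals had a median of -0.61 (-1.01 to -0.41), with 7 of 23 called lower, among them Fos and Jun at 190.4, 68.4 and 55.8 and 137, 36.1 and 34.6 CPM, while Nr4a1, an early gene of receptor stimulation, was at 149, 158 and 168 CPM. Egr1, an early gene as well, was at 65.7, 32.5 and 35.6 CPM. The second comparison had a median of 0.09 for this list and no call. The heat shock list, a sign of handling, had a median of 0.23 (-1.14 to 0.72) in the first comparison, with 7 of 11 genes above 0. Its highest gene, Hspd1, stood at 0.81, and none was called higher. Hspa1a and Hspa1b were called lower, at 84.6, 38.4 and 71.7 and 102, 42.9 and 72.1 CPM. Hspa1b was at -0.81 without members holding a UMI of another lineage. The part of handling in the early-gene values was not tested. Of 16 regulatory T cell genes, Il2ra was called higher and Izumo1r, the folate receptor-like protein of resting regulatory and follicular cells, lower, and the medians were -0.12 and 0.35.

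**Figure D4:**
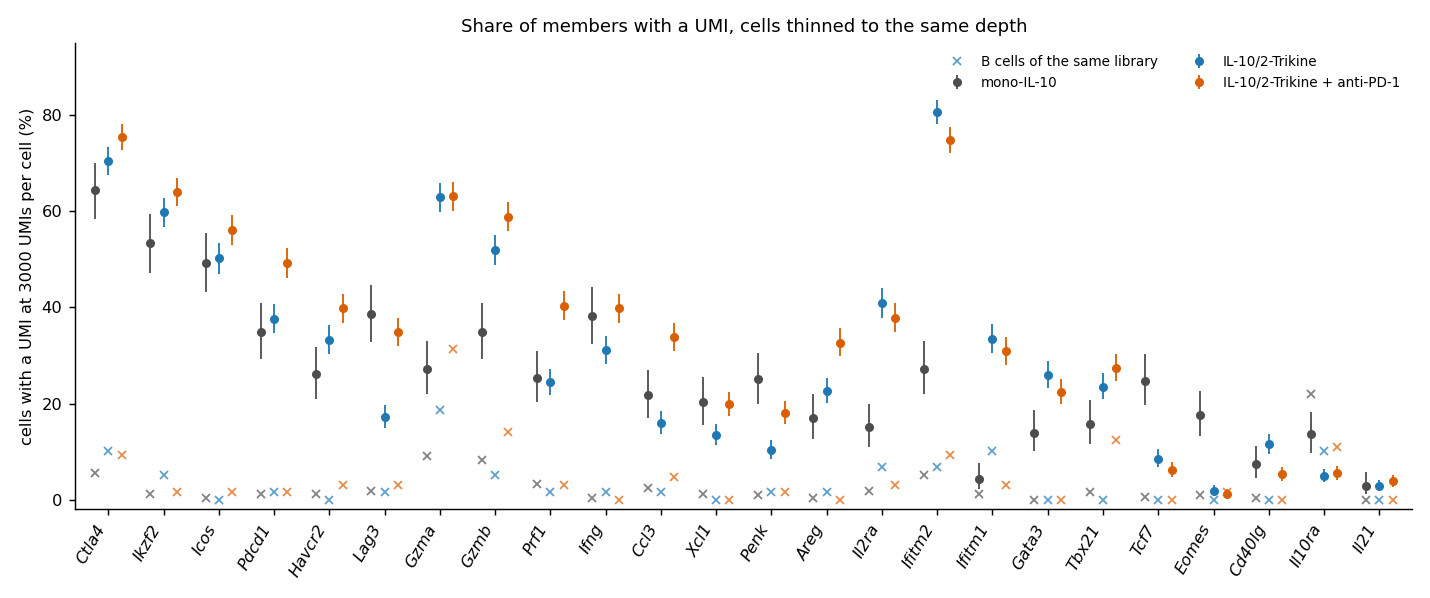
Share of members (%, points) with at least 1 UMI of each gene after thinning every cell to 3000 UMIs, with exact 95% intervals, and the same share in B cells of the same library (crosses). Ifitm2 stands at 27.2%, 80.6% and 74.8% and Prf1 at 25.4%, 24.4% and 40.4% of members in the order of the libraries.

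The ends of the ranking held further genes. Among the 10 highest with IL-10/2-Trikine over mono-IL-10 were also 1500009L16Rik at 27.3, 169.9 and 98.6 CPM, Rasgrp2, a Rap1 activator of integrin adhesion, at 55.2, 149 and 92.3 CPM, and Klk8, a secreted protease, at 22.8, 55.4 and 39.9 CPM. Without the members that held a UMI of another lineage, 8 of these 10 genes remained, and Lgals7 (galectin 7) and the metallothionein Mt1 took the other places, at 8.7, 48.9 and 20.3 and 35.7, 84.6 and 75.7 CPM. The 10 lowest included B and plasma cell genes: Ebf1 at 52.8, 0.119 and 3.71 CPM, Jchain at 341, 20.9 and 3.65 CPM, Mzb1 at 110.4, 11 and 2.01 CPM, and Cd24a and Mef2c at 56.1, 4.29 and 8.62 and 63.9, 5.48 and 3.4 CPM. Of the Jchain UMIs in mono-IL-10 members, 99.5% came from 5 cells. Slpi and Mycl, at 273, 73 and 8 and 199, 139 and 508 UMIs, had 89.0% and 68.3% of those in mono-IL-10 members in 1 cell. Without the members of other-lineage UMIs only 3 of these 10 remained, Eomes, Trerf1 and Penk. The other places then went to Xcl1, Ccl5, Tcf7, Trat1, an adaptor of the T cell receptor complex, at 62.4, 14.3 and 6.8 CPM, Tbc1d4 at 274, 72.6 and 84 CPM, Rbm47 at 77.1, 18.8 and 36.3 CPM and St6galnac3 at 112, 27.7 and 37.8 CPM. Without those members Eomes stood at -3.76, Tcf7 at -1.85, Xcl1 at -2.35 and Ccl5 at -2.21, close to their values with all members.

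At the high end for the combination over IL-10/2-Trikine stood, besides Xcl1, Ccl3, Ccl4, Prf1, Cd27, Penk and Cd200, the glycine-cleaving enzyme gene Gldc at 23.7, 31.7 and 79.2 CPM, the filopodial motor gene Myo10 at 63.6, 26.8 and 62.9 CPM and Setbp1 at 342, 112 and 230.3 CPM. The 10 lowest held, besides S1pr1, Tnfsf8, Idi1 and Fdps, 1500009L16Rik, Rasgrp2, Ass1 (argininosuccinate synthase) at 69.6, 102 and 62.8 CPM, Iqgap2 at 112, 139 and 87.5 CPM, Fcer1g, an Fc receptor signaling chain, at 61.8, 82.5 and 53.1 CPM and the fatty acid carrier gene Fabp5 at 252, 408 and 266 CPM. Without the other-lineage members all 10 of the highest and 9 of the lowest remained.

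The same ratios are set beside those of the cells most like the members. These are cycling CD8 T cells (848, 2273 and 1035), Foxp3-negative CD4 cells with no Mki67 or Top2a UMI (947, 970 and 1782) and cycling Foxp3-positive CD4 cells (58, 226 and 238). Ifitm1 with IL-10/2-Trikine over mono-IL-10 stood at 3.64 in members and at 2.92, 2.19 and 2.95 in these, and Il2ra at 1.56, 0.54, 2.15 and 0.97. Both were above 0 in every gate. Tcf7 stood at -1.84 in members and at 0.11, -1.44 and -1.36 in the others, Eomes at -3.68, -0.96, -2.09 and -1.40, and Xcl1 at -2.25, -0.44, -1.35 and 1.42. The memory list had a median of -0.97 in members and of -0.23, -0.91 and -0.23 in the others. CD4 cells thus shared a direction for Tcf7 whether cycling or not, and the cycling CD8 T cells were near 0. For the combination over IL-10/2-Trikine, Ccl3 stood at 1.69 in members and at 0.19, 1.56 and 0.39 in the others, and Prf1 at 1.15, 0.15, 1.01 and 0.22. The interferon-gamma list had medians of 0.45, 0.47, 0.18 and 0.28 in the same order. With 1 library a treatment, no difference between these gates was tested.

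**Figure D5:**
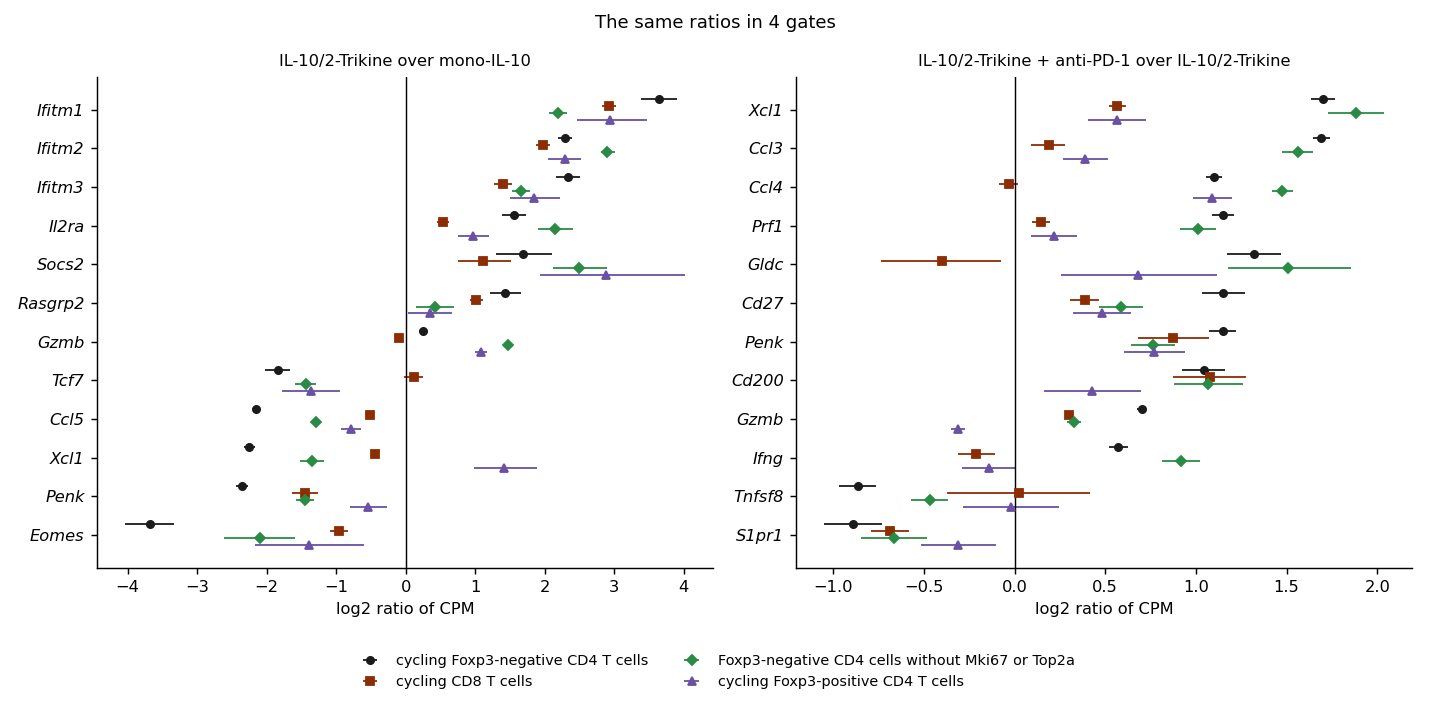
Log2 ratio of CPM (points, exact 95% intervals) of named genes in the members and in 3 other gates, for IL-10/2-Trikine over mono-IL-10 (left) and the combination over IL-10/2-Trikine (right). On the right, Xcl1 stands at 1.70 in members and at 1.88 in Foxp3-negative CD4 cells without Mki67 or Top2a, and at 0.57 in cycling CD8 T cells.

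The members' place among dividing T cells differed between libraries. Cycling CD8 T cells were 9.34%, 16.1% and 7.13% of T-gated cells, and they numbered 848 against 276 members in the mono-IL-10 library, 2273 against 1004 in the next and 1035 against 1037 in the combination. Foxp3-positive cells were 17.4%, 18.4% and 18.7% of cycling CD4 cells.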

How the data were processed

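Droplet 3′ RNA-seq was measured in 3 libraries of sorted tumor leukocytes. The authors deposited raw UMI counts for every barcode. The submitters' processing notes name Cell Ranger and mm10, the matrix header names Cell Ranger 8.0.0, and the study's methods name another build. Barcodes were selected by the counts given above. The study's methods name the same limits on genes and mitochondrial UMIs and a smaller number of cells than these limits left here. Members were summed per library and scaled to CPM. With 1 library per group no test was run. Gene ratios have exact binomial intervals, levels exact Poisson and shares Clopper-Pearson intervals, ratios between shares have log-normal approximate ones, and list medians have order-statistic intervals over their genes. Sequences came from RefSeq's promoter table. The named genes were, per comparison, the 10 highest and 10 lowest ratios among genes with 50 CPM and 50 UMIs, with and without other-lineage members, the ends of each list, and genes the study discusses. The rule genes and mitochondrial, ribosomal protein, antigen receptor, hemoglobin and sex-linked genes were not ranked. Other genes of the 22 lists illustrate their list and were picked with values known. The members and lists were chosen with earlier results of these data known. Alternatives were other gates, depths, count limits, doublet scores, TMM, median-of-ratios and per-cell scaling. Scripts were tested on simulated counts. Python 3.11.15, scanpy 1.11.5, scipy 1.17.1, R 4.3.3 and edgeR 4.0.16 (TMM factors only) were used. Values of a few genes of these lists are not reported here.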

Additional observations from a re-analysis of the deposited data

How the results depend on the processing

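No paired analysis was possible because each group is 1 library. Of 40 share ratios under alternatives, 23 moved by less than their interval and 17 by more, and the ratios whose interval had excluded 1 kept their side of it. Accepting 2 UMIs of Mki67 and Top2a gave 1.78 among T cells and 2.00 among Foxp3-negative CD4 cells for IL-10/2-Trikine over mono-IL-10, and 1.12 and 0.745 for the combination over IL-10/2-Trikine. Requiring 5 gave 2.97 and 3.33 in the first comparison, and requiring 12, added after seeing the data, gave 3.53, 3.97, 0.908 and 0.601. Thinned to 2000 UMIs, with any UMI of Mki67 or Top2a accepted, the ratios were 1.35, 1.52, 1.22 and 0.744, and thinned to 5000 UMIs with the rule kept, also added, 2.06, 2.16 and 1.26. For the combination over IL-10/2-Trikine among all T cells, the intervals that excluded 1 (1.12, 1.22 and 1.26) lay above it. Genes called higher and lower numbered 292 and 1156 in the first comparison and 457 and 233 in the second with a minimum of 20 UMIs, and 50 and 258, then 50 and 28, with 200. In the second comparison 92 were higher with 12 UMIs of Mki67 and Top2a and 102 without other-lineage members, both added after seeing the data. In the first comparison the S phase median was 0.38 with no myeloid UMI, 0.12 with 12 UMIs, 0.40 as a mean over cells, 0.43 with TMM and 0.44 with median-of-ratios factors. The G2/M median was 0.011 with 5 UMIs, -0.10 with 12, 0.26 as a mean over cells, and 0.32 with both TMM and median-of-ratios factors, and in the second comparison -0.10, -0.066 and -0.19 with 5, with 12 and as a mean over cells. The other 429 of 442 list medians under alternatives stayed within their interval or, for the Ifitm list, within the range of its genes. That list had too few genes for an interval. Values of named genes numbered 964, without those named only as the end of a list or under 50 UMIs in the alternative. Of these, 810 stayed within their interval and 150 moved beyond it. The other 4 changed sign where the interval had excluded 0: Cdk1 at -0.041 with 12 UMIs, Jchain at 0.98 and Slpi at 3.41 with no myeloid UMI, and Gzmk in the second comparison at 0.0099 without the 10% highest doublet scores, an added alternative. Among the values left out of that count, Slpi stood at 0.99 and Ccnd1 in the second comparison at 0.66 without other-lineage members, and Ccnd1 and Il17a in the first at 0.074 and -1.46 with 12 UMIs, which also changed sign. Requiring 12 UMIs ended the 2-fold calls of Lag3 (-0.83), Cxcr6 (-0.99), Gzmk (-0.84), Ccne1 (0.92) and Ccnd1 in the first comparison and of Cd200 (0.97), Iigp1 (0.93), Hspb1 (0.76), Setbp1 (0.94), Ccr4 (-0.93) and Il22 (-0.56) in the second. Leaving out other-lineage members ended those of Hspa1b (-0.81), Ciita (-0.37), Mycl (-0.21), Slpi, Ccnd1 (-0.80) and Ccne1 (0.9997) in the first and of Il22 (-0.37) and Ccnd1 in the second. The removal of Scrublet's own calls was not run, since it marked under 0.5% of barcodes. The causes were not tested, beyond the number of genes that a UMI minimum admits. With 1 library a treatment, mice, capture and sequencing cannot be told apart from treatment, and the 276 mono-IL-10 members limit what low genes show.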

Other observations

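11 pairs of genes were examined within members thinned to 3000 UMIs after single-gene values had been seen. The share of cells with Tcf7 was lower where Gzmb was present than where it was not, with counting intervals that overlapped for mono-IL-10: 15.9% (8.98 to 25.2) against 28.3% (21.9 to 35.4) with mono-IL-10, 5.63% (3.78 to 8.04) against 14% (11 to 17.3) with IL-10/2-Trikine and 3.43% (2.14 to 5.2) against 12.4% (9.38 to 16) in the combination. The share with Prf1 was higher where Gzmb was present, again with overlapping intervals for mono-IL-10: 31.8% (22.3 to 42.6) against 18.5% (13.1 to 24.9) with mono-IL-10, 38.6% (34.3 to 43.1) against 11.9% (9.22 to 15.1) with IL-10/2-Trikine and 50% (46 to 54) against 27.3% (23 to 31.8) in the combination. The share with Penk was higher where Xcl1 was present, with intervals that overlapped for IL-10/2-Trikine: 43.6% (30.3 to 57.7) against 20.7% (15.5 to 26.7) with mono-IL-10, 16.5% (10.8 to 23.8) against 10.7% (8.69 to 13) with IL-10/2-Trikine and 30.1% (23.9 to 36.9) against 14.4% (12.1 to 17) in the combination. The share with Ifitm1 where Il2ra was present, against where it was not, had overlapping intervals for mono-IL-10 and for IL-10/2-Trikine alone and was higher in the combination: 10.4% (3.47 to 22.7) against 4.46% (2.16 to 8.06) with mono-IL-10, 33.1% (28.8 to 37.7) against 33.3% (29.3 to 37.4) with IL-10/2-Trikine and 36.6% (31.7 to 41.7) against 27.9% (24.4 to 31.5) in the combination. For Ifitm2 in place of Ifitm1 the intervals were apart for mono-IL-10 and IL-10/2-Trikine alone and overlapped in the combination: 41.7% (27.6 to 56.8) against 21.4% (16.2 to 27.4) with mono-IL-10, 85.6% (82 to 88.7) against 78.4% (74.7 to 81.8) with IL-10/2-Trikine and 80.4% (76 to 84.3) against 74.3% (70.8 to 77.6) in the combination. The share with Lag3 was higher where Pdcd1 was present for mono-IL-10, with overlapping intervals in the other libraries: 47.6% (36.6 to 58.8) against 28.7% (22.4 to 35.8) with mono-IL-10, 20.7% (16.8 to 25.2) against 19% (16 to 22.4) with IL-10/2-Trikine and 36.9% (32.8 to 41.1) against 31.4% (27.3 to 35.7) in the combination. Xcl1 and Ccl3 showed no clear gap in any library: 20% (10.4 to 33) against 22.6% (17.2 to 28.7) with mono-IL-10, 16.5% (10.8 to 23.8) against 16.4% (14 to 19.1) with IL-10/2-Trikine and 34% (27.5 to 40.9) against 32.4% (29.2 to 35.8) in the combination. The other 4 pairs (Il2ra with Socs2 and with Ikzf2, Xcl1 with Ifng, and Eomes with Tcf7) had overlapping intervals in every library. Free RNA and depth left after thinning enter both genes of a pair, and their part was not tested.

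Several cytokines were carried by few members. Of the 93 Il22 UMIs of the mono-IL-10 members, 98.9% were in the 5 highest cells. Il13 in the IL-10/2-Trikine library had 27.6% of its 323 UMIs in the 5 highest, and Csf2 28.7% of 669. Cxcl2 had 79.4% of its 393 UMIs there in the 5 highest. Ifitm1 had 6.26% of 8152 UMIs in the 5 highest in that library and 63.1% of 130 with mono-IL-10. Since 518 and 22 members held it, a fixed number of 5 cells cannot compare how evenly it was spread.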
